A study of Homo sapiens with 6 samples.

Results

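The 10 genes described here are interferon-stimulated effectors outside the better known MX, OAS and IFIT families: IFI44, IFI44L, RSAD2, CMPK2, EPSTI1, XAF1, PLSCR1, IFI35, SAMD9 and SAMD9L. They were taken by symbol from a deposited table of 60612 genes, in which each symbol occurred in a single row, and all 10 passed the filter on low counts that left 19034 genes for testing. RNA was sequenced from HSC-3 cells, an established human line of oral squamous carcinoma, in 3 libraries labelled as overexpressing IRF9 and 3 control libraries titled kongbai that carry no genotype label. The series text calls the cells set beside them wild type. The construct, its promoter, any empty vector and the number of clones are not stated in the labels. Separate cultures are not stated either, so a p-value here measures spread among libraries that may be technical repeats.

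Type I and type III interferons act through their receptors and the kinases JAK1 and TYK2 to phosphorylate STAT2. It joins IRF9, the subunit that reads DNA, in the complex ISGF3, which binds interferon-stimulated response elements (ISREs) in promoters. Genes of this kind are switched on together, and many keep a basal level in epithelial cells without added interferon. The comparison asks how their transcripts differ between cells with raised IRF9 and the controls.

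The libraries held 61645349 to 85156099 counts. IRF9 itself had 435, 423 and 119.7 CPM (counts scaled to library size, with TMM factors) in the overexpressing libraries, against 27.6, 25.1 and 44.6 CPM in the controls (log2 fold change 3.35, SE 0.41, edgeR adjusted p 4.74e-05). Overexpressing replicate 3 was low in IRF9 and high in AL136295.5, which overlaps IRF9 on the same strand and had 112, 116 and 421 CPM in overexpressing libraries, against 74.5 to 95.1 CPM in controls. Summed, a check chosen after seeing the data, both genes had 546, 539 and 541 CPM in overexpressing libraries, against 123, 117 and 119 CPM in controls. Replicate 3 did not stand apart in the sum, which was 4.53-fold higher (log2 fold change 2.18, SE 0.04, adjusted p 1.16e-12). All 8 squamous epithelial markers exceeded 1 FPKM, and their summed level was 5556 to 5918 FPKM in overexpressing libraries and 8861 to 9056 FPKM in controls. Of the markers of other cell types, COL1A1 and LUM of 8 fibroblast genes and CD14 of 8 leukocyte genes exceeded 1 FPKM. The fibroblast list summed to 10.8 to 12.3 FPKM in overexpressing libraries and 19.7 to 21.3 FPKM in controls, and THY1 was at 0 throughout. The leukocyte list summed to 15.3 to 17.7 FPKM in overexpressing libraries and 13.9 to 15.4 FPKM in controls, with TYROBP at 0. None of the 6 endothelial genes exceeded 1 FPKM, and they summed to 0.329 to 0.567 FPKM in overexpressing libraries and 0.173 to 0.271 FPKM in controls, with KDR and EMCN at 0. The part of the marker shifts in the results given here was not tested.

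Promoter windows of 300 bases, from 250 before to 50 after each start, were available in RefSeq (GRCh38.p14) for all 10 genes, 16 windows in all. They are shown because ISGF3 acts through such sequence. The ISRE core was searched as GAAANNGAAA on both strands, and the shorter AANNGAAA, which every GAAANNGAAA also contains, as the core bound by IRF proteins. The windows of IFI44 overlap and share their matches, as do those of PLSCR1, so counts of windows are not counts of separate sites. GAAANNGAAA occurred in 8 of the 16 windows and 6 of the 10 genes, against 3.57% of 35116 windows and 4.38% of 27305 genes overall. A short stretch around it in each of these genes is given on the strand of the gene, 5′ to 3′, with the GAAANNGAAA match alone in capitals. IFI44 and RSAD2 match on the opposite strand, so their capitals show the reverse complement.
IFI44L (chr1:78620360-78620399, plus strand): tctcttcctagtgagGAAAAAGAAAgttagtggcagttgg
IFI44 (chr1:78649756-78649795, plus strand): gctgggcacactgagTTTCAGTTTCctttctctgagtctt
RSAD2, downstream start (chr2:6877617-6877656, plus strand): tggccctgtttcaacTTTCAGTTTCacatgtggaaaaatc
SAMD9 (chr7:93118091-93118130, minus strand): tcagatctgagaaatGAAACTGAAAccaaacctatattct
PLSCR1 (chr3:146544662-146544701, minus strand): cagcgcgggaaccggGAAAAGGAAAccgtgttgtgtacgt
EPSTI1 (chr13:42992267-42992306, minus strand): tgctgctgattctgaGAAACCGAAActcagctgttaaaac

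IFI44L carried the printed stretch at 2 places in its window, the other at chr1:78620269-78620308, with the same letters. The shorter core AANNGAAA was found in all 10 genes, against 26.7% of all genes. By window it was found in 14 of 16, against 22.8% of all windows. The windows without it belong to CMPK2, whose matches lie in a single window. CMPK2, SAMD9L, XAF1 and IFI35 held this shorter core and no GAAANNGAAA: 1 match each in SAMD9L and IFI35, 2 in CMPK2, and 3 and 1 in the 2 XAF1 windows. A single stretch of each gene is given, beside that of the upstream RSAD2 start, with every AANNGAAA match inside it in capitals.
RSAD2, upstream start (chr2:6865811-6865848, plus strand): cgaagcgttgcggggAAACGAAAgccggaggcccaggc
CMPK2 (chr2:6865811-6865848, minus strand): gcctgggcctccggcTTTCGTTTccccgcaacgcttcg
SAMD9L (chr7:93148409-93148446, minus strand): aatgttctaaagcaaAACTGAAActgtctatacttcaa
XAF1 (chr17:6756027-6756064, plus strand): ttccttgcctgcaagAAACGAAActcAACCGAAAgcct
IFI35 (chr17:43006754-43006791, plus strand): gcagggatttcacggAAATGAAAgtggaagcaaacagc

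The stretches of CMPK2 and of the upstream RSAD2 start are the same bases read from opposite strands, since the genes lie head to head. The upstream RSAD2 window held 4 matches to AANNGAAA and no GAAANNGAAA, while the downstream RSAD2 window held GAAANNGAAA. A match describes letters in a window and is not a bound site, and which start these cells used was not measured. These motifs were chosen with the windows in view.

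All 10 genes fell in IRF9-overexpressing cells, where 37.4% of all tested genes were called changed, 18.2% lower and 19.2% higher (edgeR's quasi-likelihood test, adjusted p under 0.05). Higher genes made up 51.2% of the changed ones, or 64.5% with scaling by library size alone, under which all 10 genes still fell. In all 10, every overexpressing library was below every control, as in 23.7% of all tested genes, while 25% of tested genes lay above every control. Summed, the 10 genes took 792, 831 and 802 CPM (of all counts, without TMM) in overexpressing libraries, against 1310, 1329 and 1348 CPM in the controls. Log2 fold changes, as overexpressing minus control, ran between -1.44 for SAMD9L and -0.31 for PLSCR1, with a median of -0.82, against 0.00 over all genes tested. SAMD9L, XAF1, RSAD2 and IFI44 passed the threshold and were at least 2-fold lower, as were 2.21% of all tested genes. In bulk RNA, fewer cells that express a gene and less RNA per cell cannot be told apart.

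**Figure D1:**
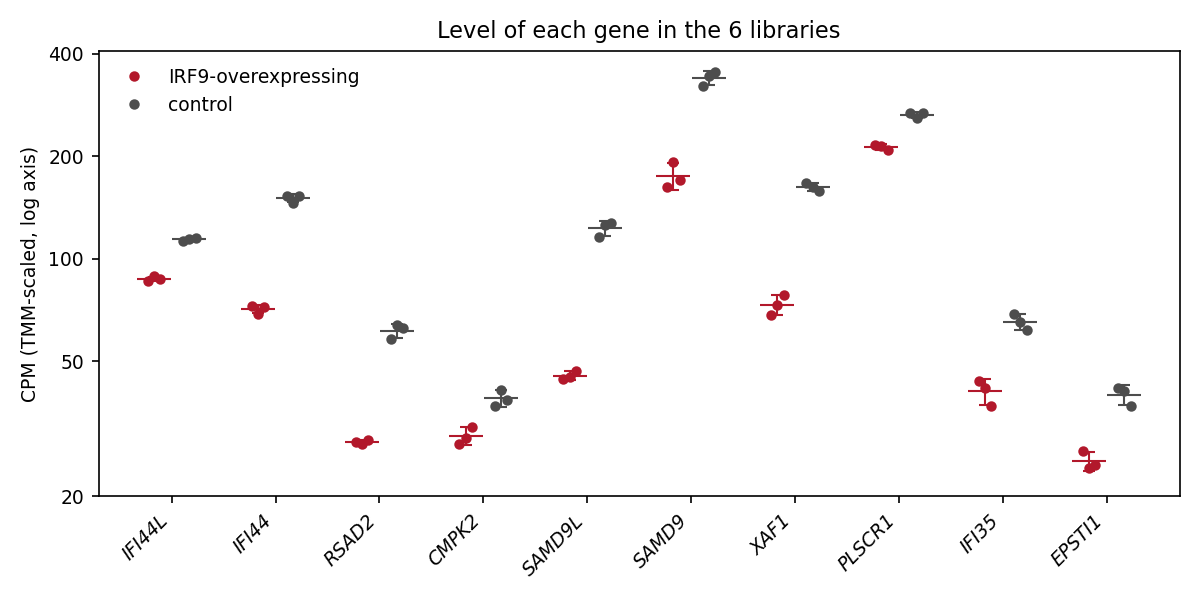
TMM-scaled CPM on a log axis for each gene in the 3 IRF9-overexpressing libraries (red, left) and the 3 control libraries (grey, right), with bars for mean ± SD. In every gene the red points lie below the grey ones. CPM is not divided by gene length, so heights are to be compared within a gene.

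SAMD9 and SAMD9L are neighbouring paralogs on chromosome 7, cytoplasmic proteins that restrict poxviruses and repress translation. SAMD9L (ENSG00000177409, chr7:93130056-93148385, minus strand) had 44.2, 45 and 46.8 CPM in overexpressing libraries, against 116, 126 and 127 CPM in controls. The groups were far apart: the lowest control was 149% above the highest overexpressing library. The log2 fold change was -1.44 (SE 0.05, adjusted p 6.94e-10), a level 36.9% of the control, and 310 of the 19034 tested genes had a lower value. SAMD9 (ENSG00000205413, chr7:93099513-93118023, minus strand) had 162, 193 and 170.1 CPM, against 322, 345 and 354 CPM in controls. Replicate 2 was the highest of the overexpressing libraries and still well below each control. SAMD9 fell by 0.96 on the log2 scale (SE 0.06, adjusted p 1.47e-07), to 51.5% of the control level.

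The whole promoter windows of both paralogs follow. The paralogs differed in how far they fell and in their matches, and a link between these was not tested. Capitals mark every match to GAAANNGAAA or AANNGAAA on either strand.
SAMD9L (chr7:93148336-93148635, minus strand): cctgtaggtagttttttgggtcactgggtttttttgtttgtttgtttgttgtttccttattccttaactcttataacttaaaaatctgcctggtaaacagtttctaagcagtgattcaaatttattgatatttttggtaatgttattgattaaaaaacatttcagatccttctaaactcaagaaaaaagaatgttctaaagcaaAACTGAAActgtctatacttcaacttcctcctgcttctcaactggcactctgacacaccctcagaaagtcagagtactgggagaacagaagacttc
SAMD9 (chr7:93117930-93118229, minus strand): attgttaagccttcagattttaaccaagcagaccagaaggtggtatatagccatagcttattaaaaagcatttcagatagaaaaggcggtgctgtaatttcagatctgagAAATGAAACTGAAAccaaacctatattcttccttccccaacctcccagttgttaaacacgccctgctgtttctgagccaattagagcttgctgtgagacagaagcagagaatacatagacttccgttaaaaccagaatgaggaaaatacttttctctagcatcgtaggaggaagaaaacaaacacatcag

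RSAD2 encodes viperin, a radical S-adenosylmethionine enzyme that turns CTP into a chain terminator of viral RNA synthesis. CMPK2, a mitochondrial nucleoside monophosphate kinase that acts on CMP and UMP, lies next to it, and the annotated genes overlap by 830 bases on opposite strands. RSAD2 (ENSG00000134321, chr2:6865806-6898239, plus strand) had 29.0, 28.5 and 29.3 CPM in overexpressing libraries, against 58.1, 63.8 and 62.4 CPM in controls. Its overexpressing libraries differed little among themselves, with a coefficient of variation of 1.34%, against 4.81% in controls. RSAD2 fell by 1.09 on the log2 scale (SE 0.05, adjusted p 2.08e-08). CMPK2 (ENSG00000134326, chr2:6840570-6866635, minus strand) had 28.6, 29.8 and 32.1 CPM, against 36.9, 41.2 and 38.4 CPM in controls. The groups came closer than in RSAD2, since the lowest control was 14.7% above the highest overexpressing library. CMPK2 fell by 0.36 (SE 0.06, adjusted p 8.23e-04). Whether counting used strand is not stated, so reads of the shared bases cannot be assigned with certainty. The genes summed, a check chosen after seeing the data, gave a log2 fold change of -0.76.

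IFI44 and IFI44L are neighbouring paralogs induced by interferon, and both have been reported to bind the co-chaperone FKBP5. IFI44 (ENSG00000137965, chr1:78649796-78664078, plus strand) had 72.4, 68.8 and 72.0 CPM in overexpressing libraries, against 153, 146 and 153 CPM in controls. It fell by 1.08 on the log2 scale (SE 0.04, adjusted p 2.26e-09), to 47.3% of the control level, with every control at least 101% above the highest overexpressing library. IFI44L (ENSG00000137959, chr1:78619922-78646145, plus strand) had 85.9, 88.7 and 86.9 CPM, against 113, 114 and 115 CPM in controls. Both groups were tight, with coefficients of variation of 1.59% in overexpressing libraries and 0.941% in controls. IFI44L fell by 0.39 (SE 0.04, adjusted p 9.53e-06), to 76.2% of the control level.

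Genes that sit side by side thus differed in how far they fell, and the log2 ratio of their counts within each library shows by how much. Gene length cancels in the difference between groups but not in a ratio itself, so only the differences are read. SAMD9L over SAMD9 was -1.87, -2.10 and -1.86 in overexpressing libraries, against -1.47, -1.46 and -1.48 in controls. The difference was -0.48, or 1.39-fold, and overexpressing replicate 2 was the farthest out. RSAD2 over CMPK2 was 0.02, -0.06 and -0.13 in overexpressing libraries, against 0.66, 0.63 and 0.70 in controls, a difference of -0.72 or 1.65-fold. IFI44L over IFI44 was 0.25, 0.37 and 0.27, against -0.43, -0.35 and -0.40, a difference of 0.69 or 1.61-fold. In all 3 pairs the groups did not overlap. How often the ratios of other gene pairs separate in this way was not tested, and 37.4% of all tested genes were called changed. The separation is therefore not read as particular to these neighbours. The two-sided exact permutation test gave p = 0.1 for each pair, also after adjustment over the 3 pairs, which is the smallest p that 3 against 3 libraries allow.

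**Figure D2:**
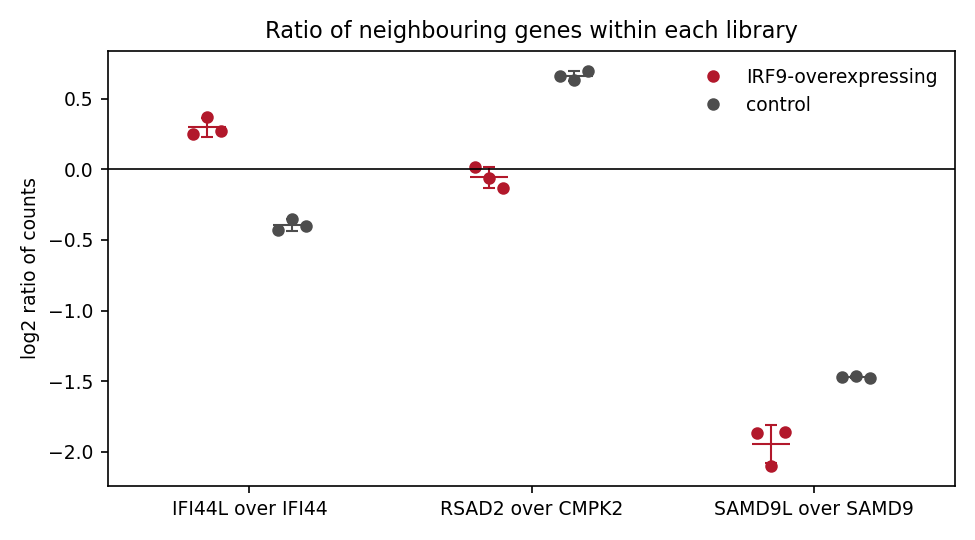
Log2 ratio of the counts of neighbouring genes in each library, IRF9-overexpressing in red on the left and control in grey on the right of each pair, with bars for mean ± SD (n = 3 each). SAMD9L over SAMD9 averaged -1.94 against -1.47, RSAD2 over CMPK2 -0.06 against 0.66, and IFI44L over IFI44 0.29 against -0.40.

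XAF1 antagonises XIAP, an inhibitor of caspases. XAF1 (ENSG00000132530, chr17:6755447-6775647, plus strand) had 68.1, 73.3 and 78.1 CPM in overexpressing libraries, against 167, 162 and 158 CPM in controls. It fell by 1.15 on the log2 scale (SE 0.05, adjusted p 6.96e-09), to 44.9% of the control level, next to SAMD9L in size among the 10 genes. PRAL, annotated on the opposite strand across the end of XAF1, had 5.75, 1.70 and 2.92 CPM in overexpressing libraries, against 2.47, 1.87 and 1.87 CPM in controls (0.78, SE 0.37, adjusted p 0.124). Without overexpressing replicate 1, the highest library, the PRAL value was 0.17 (adjusted p 0.678). Summed with PRAL, XAF1 had a log2 fold change of -1.10. XIAP had 62.3 ± 4.28 CPM in overexpressing libraries against 74.8 ± 4.22 CPM in controls (mean ± SD, n = 3 each) and also fell (-0.27, SE 0.06, adjusted p 0.00418). The XIAP call was lost in both fits to the FPKM values (limma adjusted p 0.0687 and 0.0623) and in glmTreat against a log2 fold change of 0.25. BIRC2 and BIRC3, the related cellular inhibitors, did not pass.

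IFI35 forms a complex with NMI, another interferon-induced protein. IFI35 (ENSG00000068079, chr17:43006740-43014456, plus strand) had 43.6, 41.8 and 36.8 CPM in overexpressing libraries, against 68.8, 65.3 and 61.7 CPM in controls. Replicate 3 was the lowest library of each group, and the groups stayed apart. IFI35 fell by 0.68 (SE 0.07, adjusted p 7.63e-06), while NMI had 64.8 ± 4.12 CPM against 74.7 ± 0.564 CPM and fell by 0.20 (SE 0.05, adjusted p 0.00806). The NMI call was lost with scaling by library size alone (edgeR adjusted p 0.0533) and in both fits to the FPKM values (limma adjusted p 0.0523 and 0.0513). It was also lost in glmTreat against a log2 fold change of 0.25.

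EPSTI1 was first described in breast epithelial cells grown with stromal fibroblasts. EPSTI1 (ENSG00000133106, chr13:42886388-42992271, minus strand) had 27.2, 24.3 and 24.7 CPM in overexpressing libraries, against 41.8, 40.8 and 36.9 CPM in controls, a log2 fold change of -0.65 (SE 0.07, adjusted p 1.35e-05). The lowest control was 35.6% above the highest overexpressing library.

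PLSCR1 is a phospholipid scramblase of the plasma membrane that limits entry of some viruses. PLSCR1 (ENSG00000188313, chr3:146515180-146544856, minus strand) had 216, 214 and 209 CPM in overexpressing libraries, against 268, 259 and 268 CPM in controls. The fall was the smallest of the 10 genes, 0.31 on the log2 scale (SE 0.03, adjusted p 2.27e-05), and the groups were again separate. Of its paralogs, PLSCR4 fell by 0.34 (SE 0.08, adjusted p 0.00529) and PLSCR3 rose by 0.29 (SE 0.06, adjusted p 0.00228), while PLSCR2 did not pass the filter on low counts.

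**Figure D3:**
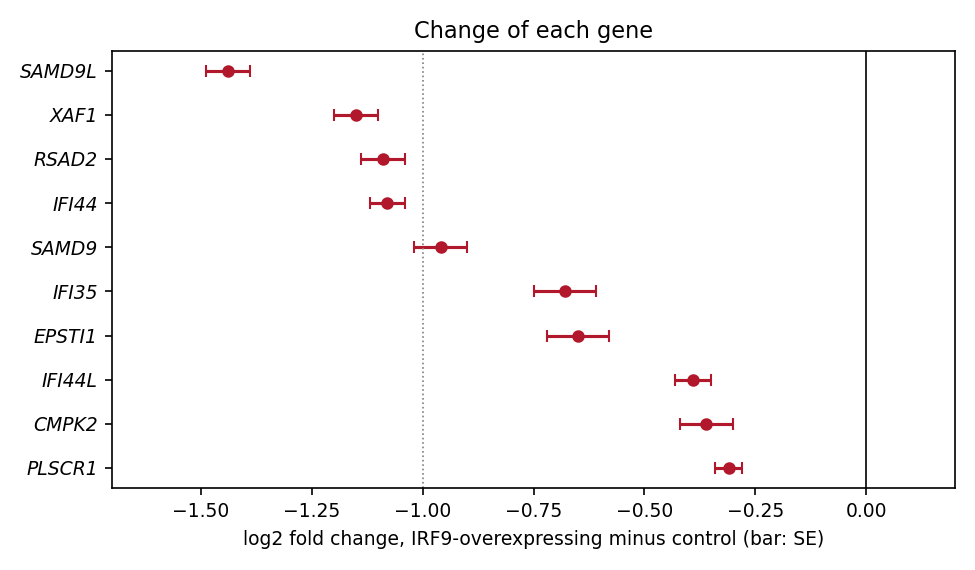
Log2 fold change of each gene, IRF9-overexpressing minus control, with bars for the SE from edgeR's quasi-likelihood fit over 3 and 3 libraries, and a dotted line at a 2-fold fall. The values run between -1.44 for SAMD9L and -0.31 for PLSCR1, with IFI44L, CMPK2 and PLSCR1 grouped at the small end.

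Levels that take gene length into account were read from the deposited FPKM values. In overexpressing libraries the order was PLSCR1 at 111 ± 4.21 FPKM, IFI44 at 41.5 ± 0.791, IFI35 at 30.0 ± 2.42, SAMD9 at 22.4 ± 2.20, XAF1 at 21.8 ± 1.59, IFI44L at 18.8 ± 0.262, CMPK2 at 10 ± 0.796, RSAD2 at 7.97 ± 0.10, EPSTI1 at 6.99 ± 0.397 and SAMD9L at 6.15 ± 0.282 (mean ± SD, n = 3). Of these neighbours in the order, SAMD9 and XAF1 had overlapping ranges. In controls it was PLSCR1 at 131 ± 3.64 FPKM, IFI44 at 84.5 ± 3.18, XAF1 at 48.0 ± 1.52, IFI35 at 46.2 ± 2.03, SAMD9 at 41.7 ± 2.34, IFI44L at 23.8 ± 0.699, SAMD9L at 16.4 ± 0.704, RSAD2 at 16.1 ± 0.825, CMPK2 at 12.3 ± 0.661 and EPSTI1 at 10.3 ± 0.383. There, XAF1 with IFI35 and SAMD9L with RSAD2 overlapped. SAMD9L was thus the lowest of the 10 in overexpressing cells and held rank 7 in controls, and RSAD2 lay below CMPK2 in overexpressing cells and above it in controls.

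The log2 fold changes of the genes with and without the longer motif are listed here, and a link between fall and motif was not tested. The 6 genes with GAAANNGAAA had log2 fold changes of -1.09 (RSAD2), -1.08 (IFI44), -0.96 (SAMD9), -0.65 (EPSTI1), -0.39 (IFI44L) and -0.31 (PLSCR1). The 4 without it had values of -1.44 (SAMD9L), -1.15 (XAF1), -0.68 (IFI35) and -0.36 (CMPK2). RSAD2 counts among the 6 only through the window of its downstream start, and which start these cells used was not measured.

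Of 56 other interferon-stimulated genes, 51 fell (18.2% of all tested genes did), ISG20 rose (0.44) and 4 did not pass, namely HERC5 (0.06), IFITM2 (0.01), SP100 (-0.04) and BATF2 (-0.45). Their median log2 fold change was -0.56, against -0.82 for the 10 genes and 0.00 for all genes tested. Both lists were drawn up with results of these data known, so neither count is independent evidence of a direction.

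**Figure D4:**
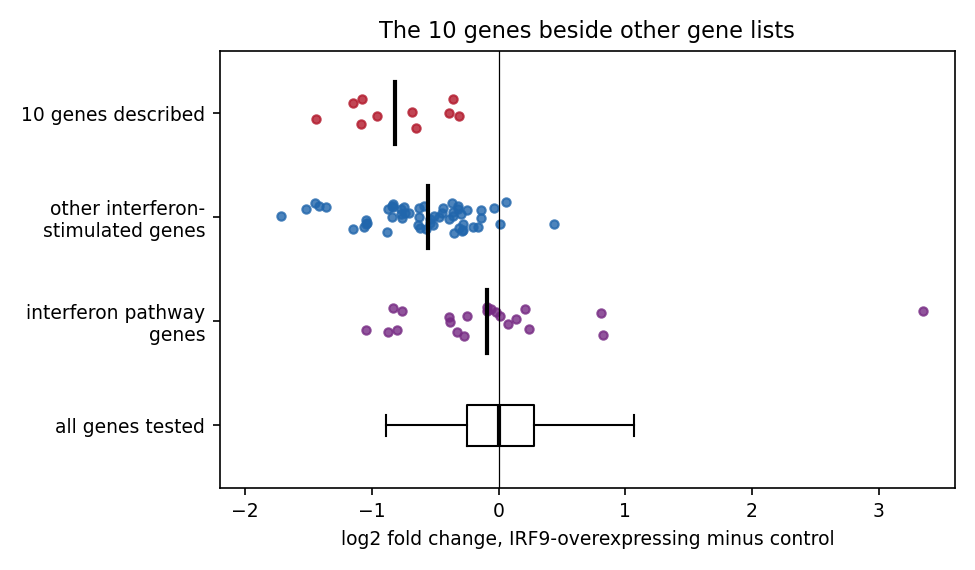
Log2 fold change, IRF9-overexpressing minus control, of the 10 genes, 56 other interferon-stimulated genes and 22 tested interferon pathway genes (points, with a black line at each median), above a box for all 19034 genes tested (quartiles at -0.25 and 0.28, whiskers at percentiles 5 and 95). The 10 genes all lie below 0, and the point at 3.35 is IRF9.

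Of 29 genes of the interferon pathway, 22 were tested, of which 10 fell and 5 rose, with a median of -0.09. Over all tested genes 18.2% fell and 19.2% rose, so the share that rose was near the background. On this list 5 genes are also on the list of interferon-stimulated genes. Among ligands, IFNB1 had 4, 3 and 3 counts in overexpressing libraries and 5, 4 and 3 in controls, too few to test. IFNA1, IFNA2, IFNK, IFNL2 and IFNL3 had 0 counts in every library, which allows up to 3 counts in each, and IFNL1 had 3 counts in a single overexpressing library. IFNE, an interferon of epithelia, was called lower (-0.80, SE 0.26, adjusted p 0.0299), a call lost without overexpressing replicate 1 (-0.54) or 3 (-0.85) and without control replicate 1 (-0.66) or 3 (-0.80). Among receptor chains, IFNAR1 fell by 0.39 (SE 0.05), IL10RB by 0.33 (SE 0.06) and IFNGR1 by 0.38 (SE 0.04), and the kinase TYK2 fell by 0.27 (SE 0.06). IFNAR2, the other chain of the type I receptor, had a log2 fold change of -0.02 (SE 0.07), or 0.04 with scaling by library size alone, and did not pass. The receptor chains IFNLR1 (-0.09) and IFNGR2 (-0.06) and the kinases JAK1 (0.07) and JAK2 (0.14) did not pass either.

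STAT2, which assembles with IRF9, had 118 ± 4.74 CPM in overexpressing libraries against 209.9 ± 1.10 CPM in controls (-0.83, SE 0.04, adjusted p 1.52e-08). IRF7 (-1.05) and the feedback genes USP18 (-0.76) and ISG15 (-0.87) fell as well. IRF9 (3.35, or 2.18 summed with AL136295.5), IRF5 (0.81), SOCS3 (0.82), IRF3 (0.24) and IRF1 (0.21) rose.

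Among 16 tested genes known to work with one of the 10 or related to it, 5 were called lower and 4 higher, and the median was -0.01. Over all tested genes 18.2% were called lower and 19.2% higher. Both shares were larger among these 16 genes, a small list, and the difference was not tested. Besides XIAP, NMI and PLSCR4, HADHB, a subunit of the mitochondrial trifunctional protein that viperin binds, fell by 0.16 and TRAF6, a ubiquitin ligase, by 0.15. The call of HADHB was lost without overexpressing replicate 2 (-0.13) or control replicate 1 (-0.14), and that of TRAF6 without control replicate 1 or 3 (-0.14 each). Both were also lost with scaling by library size alone. Besides PLSCR3, FKBP5, which binds IFI44 and IFI44L, rose by 0.21, VAPA, a membrane protein that viperin binds, by 0.19 and CIAO2B, of the cytosolic iron-sulfur assembly machinery, by 0.29. The VAPA call was lost in both fits to the FPKM values (limma adjusted p 0.0639 and 0.0588).

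The 10 genes lie at 7 loci. Of the 14 nearest tested genes on either side, VPS50 fell and 5 rose, and their median log2 fold change was 0.16. That is 6 of 14 called, near the 37.4% of all tested genes. The nearest to IFI35 were RPL27, which had 410.1 ± 28.3 CPM in overexpressing libraries against 330.3 ± 19.1 CPM in controls (0.31, SE 0.05, adjusted p 5.81e-04), and VAT1, which had 235 ± 2.02 CPM against 192 ± 2.42 CPM (0.29, SE 0.03, adjusted p 3.36e-05). RNF144A, 19.2 kb beyond RSAD2, rose by 0.68 (SE 0.11, adjusted p 3.69e-04). NRIR, a long noncoding RNA known as a negative regulator of the interferon response, starts next to CMPK2 and had 0.678 ± 0.255 CPM against 0.330 ± 0.167 CPM (1.09, SE 0.48, adjusted p 0.0947). NRIR did not pass, its value ran between 0.70 without control replicate 2 and 1.40 without control replicate 1, and it was 0.17 and 0.52 in the FPKM fits. It passed in a single alternative, without overexpressing replicate 2 (1.33, adjusted p 0.0463). VPS50, beside SAMD9L, fell by 0.25, a call lost without control replicate 1 or 2 (-0.24 each) and with scaling by library size alone (-0.18). ADGRL2, 2642 kb beyond IFI44, rose by 0.26 and C17orf100 by 0.71. The call of ADGRL2 was lost without control replicate 1 (0.20), and that of C17orf100 without overexpressing replicate 1 (0.60) or 3 (0.64) and without control replicate 1 (0.63) or 3 (0.61).

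The mean profile of the 10 genes over the 6 libraries was compared with 11359 other genes of at least 5 CPM, as the root mean square difference of centred log2 CPM. The nearest were RIPK4 (0.023), ANXA8L1 (0.026), CDKN2B (0.028), LOXL2 (0.029) and LANCL2 (0.029), with log2 fold changes of -0.83 to -0.80. Fold changes near the mean of the 10 genes follow from choosing by profile over the same libraries. RIPK4 is a kinase of keratinocyte differentiation, CDKN2B an inhibitor of cyclin-dependent kinases and LOXL2 a lysyl oxidase, and ANXA8L1 has near-identical copies among which its reads may be split. Among the 10 genes themselves, IFI35 (0.110) and SAMD9 (0.111) lay nearest to their own mean and SAMD9L (0.315) and PLSCR1 (0.25) farthest from it. Likeness over 6 libraries in 2 groups is given as a description.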

How the data were processed

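RNA of 3 IRF9-overexpressing and 3 control HSC-3 libraries was prepared with Trizol and a TruSeq kit, per the labels' protocols. The first table holds raw counts by gene, as deposited by the authors. The other holds gene symbols, positions and normalised values, and since its header names no unit, these deposited values were taken as FPKM from their range. HISAT2, StringTie, edgeR, Trimmomatic, FastQC, CASAVA 1.8 and the build GRCh38 appear in the submitters' processing notes, with no roles. No label states the annotation release or the use of strand.

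Counts were fitted with edgeR 4.0.16 in R 4.3.3 (filterByExpr with a minimum count of 10 and total of 15, TMM, quasi-likelihood test with legacy set to false, group as the only term). P-values were adjusted by Benjamini-Hochberg over 19034 genes. SEs come from the test statistic. The code was tested on simulated data. Pair ratios used a prior count of 0.5. Alternatives used DESeq2 1.42.0, limma 3.58.1 and other settings, and the legacy quasi-likelihood and the summing of overlapping genes were chosen after seeing the data. The members, lists and rule for named genes (the 10 genes, IRF9, fixed partners and pathway genes, nearest neighbours and the 5 nearest profiles) were chosen with earlier results of these data known, and some genes the rule takes are given only as counts or are not reported here. Of 57 names on the list of other interferon-stimulated genes, 56 were matched, the other being a newer symbol of DDX58. At these depths the 10 genes had between 1727 and 25071 counts per library.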

Additional observations from a re-analysis of the deposited data

How the results depend on the processing

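All 10 genes stayed lower in every alternative run, and 190 of 192 values also kept the call. The exceptions came from glmTreat against a log2 fold change of 0.25, a stricter test by construction: CMPK2 (adjusted p 0.0808) and PLSCR1 (0.0716). Leaving out each library in turn kept 10 of 10, with log2 fold changes of -1.47 to -1.42 for SAMD9L and -0.33 to -0.30 for PLSCR1. The glmTreat setting also gave 2918 changed genes against 7121, and 9 changed pathway genes against 15. Among the calls it lost were those of XIAP, NMI, VAPA, IL10RB, TYK2, PLSCR3, PLSCR4, FKBP5, CIAO2B, HADHB and TRAF6. Those of RPL27, VAT1, VPS50, ADGRL2, C17orf100, IRF1, IRF3 and IFNE were lost there too. Both FPKM fits lost the calls of XIAP, NMI, VAPA, VPS50, ADGRL2, HADHB, TRAF6 and IFNE. Library size scaling alone made 64.5% of changed genes higher against 51.2%, and moved the median of all genes by 0.07 on the log2 scale. IFNAR2, not called in the fit reported (-0.02) and between -0.09 and 0.02 with each library left out, reversed to 0.04 there, to 0.05 in both FPKM fits, and to 0.02, 0.01 and 0.01 without overexpressing replicate 2, control replicate 1 and control replicate 2; the cause was not tested. The replicate numbers mark no shared culture in the labels, and same-numbered samples had correlations of -0.0169 to 0.00731. With the replicate block 7458 genes and all 10 members were called. The 3 pair differences kept their sign in all 9 alternatives each, with the replicate block giving -0.48 for SAMD9L over SAMD9. PRAL, not called (0.78, adjusted p 0.124), ran from 0.17 without overexpressing replicate 1 to 1.07 without overexpressing replicate 2, where it passed (adjusted p 0.0147), as it did with the replicate block (0.75, adjusted p 0.0261). IRF9 summed with AL136295.5 gave 2.18, against 3.35 for IRF9 alone.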
